A study of Homo sapiens with 6 samples.

Results

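The 10 genes described here encode the catalytic subunits of the proteasome and the activators that cap it. They were chosen by name: the constitutive catalytic subunits PSMB5, PSMB6 and PSMB7, the inducible subunits PSMB8, PSMB9 and PSMB10, and the activator genes PSME1, PSME2, PSME3 and PSME4. All 10 were found among the 29744 gene symbols of the count table, and all 10 were among the 14958 that passed the filter on low counts. RNA was sequenced from 3 cultured lines, with 2 libraries each and no treatment listed. MKN45 is an established human gastric cancer line, labelled as sensitive. HER2R and CEAR are its derivatives, labelled resistant to T cell bispecific antibodies that bind HER2 and CEACAM5, respectively. A T cell bispecific antibody links a T cell to a tumour cell that carries the antigen. HER2R and CEAR are short for the labels' conditions MKN_HER2R and MKN_CEAR. The cell line entries are MKN45-HER2 and MKN45-CEAR, and the titles have MKN-HER2 and MKN-CEAR. It is not stated whether MKN45-HER2 is the resistant line itself or a HER2-modified line it was raised from, so resistance and any such modification cannot be told apart in HER2R against MKN45. The labels also do not say whether each line is 1 clone or a pool, how long resistance was selected, or whether antibody was still present. All 3 lines were grown in DMEM/F-12 with serum, and no T cells are named in the samples. Whether the paired libraries of each line represent independent cultures is not stated, so p-values capture only library-to-library spread, which may be technical.

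The proteasome is the barrel-shaped protease that degrades ubiquitin-tagged proteins. Its catalytic subunits are PSMB6 (beta 1, which cuts after acidic residues), PSMB7 (beta 2, after basic residues) and PSMB5 (beta 5, after hydrophobic residues). Interferon-gamma induces PSMB9, PSMB10 and PSMB8, which take the places of PSMB6, PSMB7 and PSMB5 in newly assembled barrels, and the result is called the immunoproteasome. Its cuts favour peptides with the hydrophobic or basic ends that suit MHC class I molecules, which show peptides to CD8 T cells. PSME1 and PSME2 (PA28 alpha and beta) form an interferon-inducible cap, PSME3 (PA28 gamma) forms a nuclear cap, and PSME4 (PA200) is a large nuclear activator. PSMB8 and PSMB9 lie in the MHC class II region beside TAP1 and TAP2, which encode the transporter that carries the peptides into the endoplasmic reticulum.

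Of the 5 interferon-inducible members, all but PSMB9 share a short sequence at a start. The interferon-stimulated response element, searched on both strands as GAAA, any 2 bases and GAAA, occurred in a promoter window (250 bases before to 50 after a RefSeq start) of 4 of the 8 members with a window. Of all 35116 promoter windows, 3.57% held it, a share per window and not per gene (the 8 members had 10 windows). Those 4 sites are shown with that of TAP1 because they mark the genes whose RNA is compared below. Each is 30 bases in GRCh38.p14, read 5′ to 3′ on the gene's strand, with the match in capitals.
PSMB8 (chr6:32844032-32844061, minus strand): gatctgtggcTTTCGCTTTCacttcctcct
PSMB10 (chr16:67936852-67936881, minus strand): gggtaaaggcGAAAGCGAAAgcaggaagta
PSME1 (chr14:24136189-24136218, plus strand): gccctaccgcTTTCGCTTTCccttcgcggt
PSME2 (chr14:24146619-24146648, minus strand): cctggggagtGAAAGCGAAAgcccgggcga
TAP1 (chr6:32853816-32853845, minus strand): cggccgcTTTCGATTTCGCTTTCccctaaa
The capitals in PSMB10 and PSME2 are the same letters, and those in PSMB8 and PSME1 are that run on the other strand. Relative to the start, the match covered positions -4 to 6 at the second listed start of PSMB8, -21 to -12 in PSMB10, 6 to 15 in PSME1 and -28 to -19 in PSME2. The windows of PSMB5, PSME3, PSME4 and PSMB9 held no match to these letters.

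PSMB9 shares an upstream region with TAP1, which is read in the opposite direction, and their RefSeq starts lie 488 bases apart. The TAP1 element, in which 2 matches overlap, ends 354 bases before the PSMB9 start, outside the PSMB9 window. The 182 bases between the GENCODE 29 start of TAP1 and that of the principal PSMB9 transcript are shown because PSMB9 had the largest differences between lines of the 10 genes (chr6:32853979-32854160, GRCh38.p14, plus strand).
PSMB9 upstream: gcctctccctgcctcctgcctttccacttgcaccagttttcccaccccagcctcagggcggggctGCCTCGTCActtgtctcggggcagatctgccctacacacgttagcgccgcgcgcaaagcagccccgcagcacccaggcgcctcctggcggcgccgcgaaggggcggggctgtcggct
The capitals mark a match on the other strand to the antioxidant response element (TGACNNNGC), a motif of NFE2L1 and its relatives, at positions -148 to -140 from the RefSeq start. Matches to it also occurred in PSME1, PSME2 and PSME4, against 13.3% of all windows. The gamma-activated site (TTCNNNGAA), found in 7.66% of all windows, occurred in PSMB5, PSMB8 and PSME3, with 2 matches in PSMB5. The NF-kappaB motif, in 11.3% of all windows, matched in none of the members' windows and 2 times in TAP1. A match is a description of letters, not of binding.

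**Figure D1:**
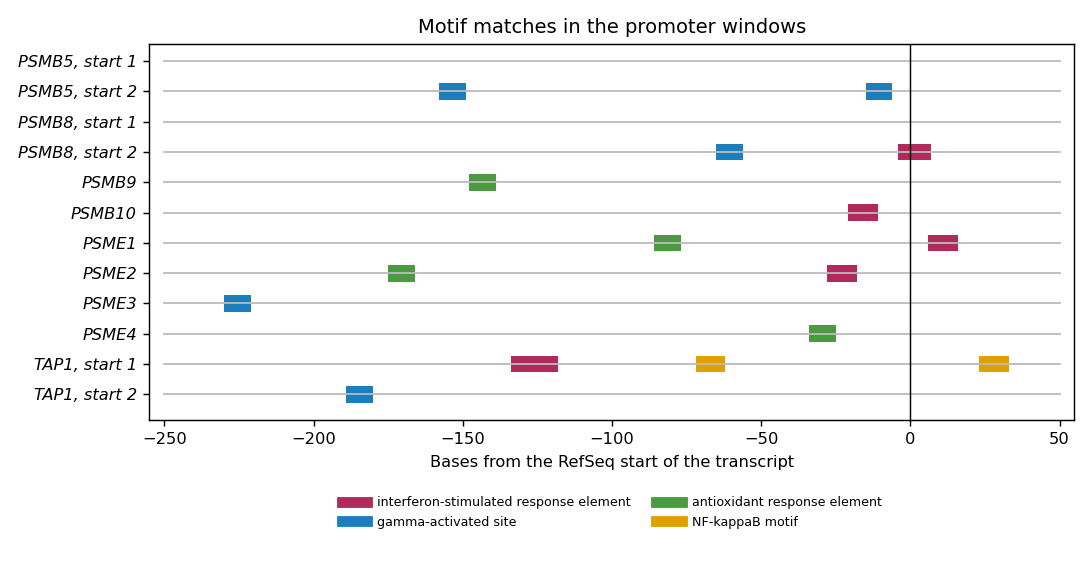
Motif matches in the promoter windows of 8 members and of TAP1, with distance from the RefSeq start in bases on the x axis and 1 line per start. The interferon-stimulated response element appears near the start in PSMB8, PSMB10, PSME1 and PSME2 and farther upstream in TAP1.

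Library totals ran from 39657353 to 57964246 counts, and 1 count corresponded to 0.0177 to 0.0255 CPM (counts scaled to the TMM-adjusted library total, the usual depth-scaled read count). The identity of the cells was checked against marker genes. All 8 epithelial and gastric markers had counts in every library, with a summed level of 8311 to 15579 CPM that came mostly from KRT8 and KRT18. Several markers were not even between lines or libraries. EPCAM was higher in HER2R than in CEAR by 0.79 on the log2 scale (edgeR adjusted p = 0.0327). With the library number as a term in the fit (described below), CDH1 was at -0.57 in HER2R against MKN45 (edgeR adjusted p = 0.0098, and 0.0666 without the term). KRT19 was at -0.93 in CEAR against MKN45 in that fit (edgeR adjusted p = 0.00348, and 0.209 without the term). KRT8 and KRT18 passed no test in either fit. TFF1, a secreted stomach peptide, had 568 and 7628 counts in MKN45 libraries 1 and 2, 284 and 2614 in those of HER2R, and 214 and 1427 in those of CEAR. Number 2 was thus the higher in each line for TFF1, and TFF2 did the same (number 2 against 1 by 3.37 and 3.34 on the log2 scale, edgeR adjusted p = 0.000346 and 0.000890 for the number term). CLDN18, a tight junction gene of the stomach, was higher in CEAR than in MKN45 by 4.06 (edgeR adjusted p = 0.00241). The part of these differences in the results below was not tested. Of 12 leukocyte markers, 5 to 8 were at 0 in a library. PTPRC, which marks all leukocytes, had 1 count over the 6 libraries, and CD3D and NKG7 had 0. MKN45 libraries had a summed leukocyte level of 5.39 and 15.5 CPM, HER2R libraries 3.57 and 4.06, and CEAR libraries 3.01 and 6.02, nearly all of it from CD68. CD68, a lysosomal protein used as a macrophage marker, was lower with the number as a term in the fit (the replicate block, described below) in HER2R by -1.47 and in CEAR by -1.19 against MKN45 (edgeR adjusted p = 0.0125 and 0.0289; 0.136 and 0.259 without the block). It was also higher in number 2 by 1.03 (edgeR adjusted p = 0.0411). CD68 thus changed in the same direction as PSMB9 in these fits, but not throughout. From number 1 to number 2 in HER2R, CD68 changed by 0.02 on the log2 scale, where PSMB9 changed by 1.49. In HER2R against CEAR with the block, CD68 was at -0.28 (edgeR adjusted p = 0.590), where PSMB9 was at 1.74. The part of CD68 in the results was not tested. Of 9 stromal and endothelial markers, 5 or 6 were at 0, and their sum was 1.05 to 7.92 CPM. Only COL1A1, a collagen gene, passed the filter among them. With the block it was higher in HER2R than in MKN45 by 2.27 (edgeR adjusted p = 0.000827, and 0.0564 without the block). It was also higher in HER2R than in CEAR, by 1.95 (edgeR adjusted p = 0.00149, and 0.0638 without the block). Its part in the results was not tested. In bulk RNA, fewer cells expressing a gene and less RNA per cell cannot be told apart.

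Per transcript length, the constitutive subunits stood far above PSMB9 and PSMB10 in all 3 lines. On the scale of CPM per kilobase of the principal GENCODE 29 transcript, the MKN45 mean levels ran in the order PSME3 at 262, PSMB6 at 126, PSMB5 at 94.1, PSME2 at 68.5, PSME1 at 63.6, PSMB7 at 63.4, PSMB8 at 32.9, PSME4 at 21.7, PSMB10 at 15.1 and PSMB9 at 12.3. The libraries of PSME1 and PSMB7, of PSME4 and PSMB10 and of PSMB10 and PSMB9 overlapped, so these neighbours had no order beyond their spread. In HER2R the order ended with PSME4 at 23.3, PSMB10 at 7.05 and PSMB9 at 3.72 CPM per kilobase, and in CEAR with PSMB8 at 21.0, PSMB10 at 8.57 and PSMB9 at 1.12. By the mean PSMB9 was the lowest of the 10 genes in each line. In HER2R and CEAR its libraries lay below all libraries of PSMB10, and in MKN45 they did not.

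**Figure D2:**
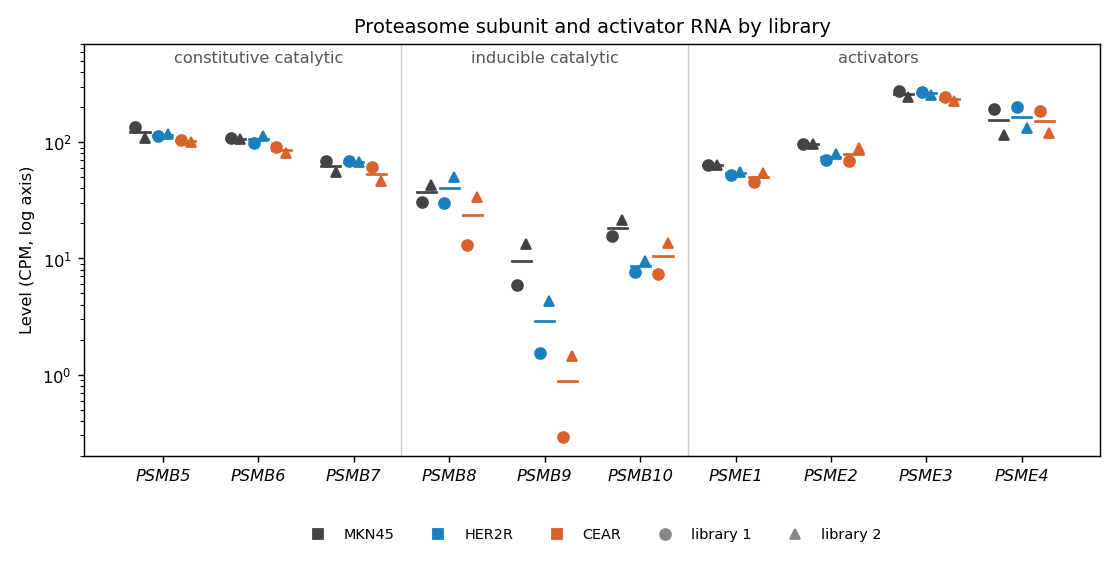
Level of each of the 10 genes in CPM on a log axis, with 1 point per library, coloured by line, the symbol giving the library number and the bar the mean of a line. PSMB9 spans the widest range, from 13.3 CPM in an MKN45 library to 0.289 CPM in a CEAR library, while PSME3 stays between 224.1 and 277.5 CPM.

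PSMB9, the inducible beta 1 subunit, had the widest differences. Its level was 5.93 and 13.3 CPM in MKN45 (335 and 583 counts), 1.53 and 4.28 CPM in HER2R (60 and 168 counts), and 0.289 and 1.46 CPM in CEAR (12 and 65 counts). Both HER2R and both CEAR libraries lay below both MKN45 libraries, whereas 1 CEAR library nearly reached the lower HER2R library. The fitted log2 fold change was -1.71 ± 0.678 (SE) in HER2R against MKN45, which is 3.28-fold lower, with an edgeR adjusted p of 0.158 over all tested genes. In CEAR against MKN45 it was -3.42 ± 0.779, or 10.7-fold lower, with an edgeR adjusted p of 0.0556. Neither passed the threshold of 0.05, and both sizes depend on single libraries. Without MKN45 library 2 the HER2R value was -1.03 and without HER2R library 2 it was -2.64, and the CEAR value was -2.70 without CEAR library 1 and -5.03 without CEAR library 2. These comparisons share the MKN45 libraries, so they are not independent.

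The spread of PSMB9 within a line followed the library number. In each line the library numbered 2 was higher than that numbered 1, by 1.16 (MKN45), 1.49 (HER2R) and 2.34 (CEAR) on the log2 scale. The labels do not say what the number stands for. With the number as a term (the replicate block, a fit that compares libraries of the same number), PSMB9 was lower in HER2R than in MKN45 by a log2 fold change of -1.77 ± 0.252 (edgeR adjusted p = 0.00145) and in CEAR than in MKN45 by -3.51 ± 0.30 (edgeR adjusted p = 0.000194). Over all alternatives the edgeR, DESeq2 or limma-voom adjusted p ran from 0.000159 to 0.479 for HER2R and from 5.85e-05 to 0.161 for CEAR. Within number 1 the PSMB9 difference was -1.96 in HER2R and -4.36 in CEAR against MKN45, and within number 2 it was -1.63 and -3.18. In the 6 blocked fits that omit a library, the PSMB9 log2 fold changes ran from -2.11 to -1.54 for HER2R against MKN45. For CEAR against MKN45 they ran from -4.28 (without CEAR library 2) to -3.23. Some of these fits omit a library of the line not compared. Here and below, a fit without a library leaves 1 library in that line and fewer residual degrees of freedom. Calls kept or lost in such fits therefore describe those fits only. HER2R exceeded CEAR by 1.71 ± 0.837 in PSMB9 (edgeR adjusted p = 0.215), and by 1.74 ± 0.346 with the replicate block (edgeR adjusted p = 0.00551, range over alternatives 0.00238 to 0.686). That difference was 0.78 without HER2R library 2 and 3.31 without CEAR library 2 in the unblocked fit, and 2.51 without CEAR library 2 in the blocked one.

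PSMB10, the inducible beta 2 subunit, measured less in all 4 resistant libraries than in both MKN45 libraries. Its level was 15.5 and 21.4 CPM in MKN45, 7.67 and 9.51 CPM in HER2R, and 7.40 and 13.5 CPM in CEAR. The libraries of the resistant lines overlapped. The log2 fold change in HER2R against MKN45 was -1.10 ± 0.33, or 2.14-fold lower, with an edgeR adjusted p of 0.0848. With the replicate block it was -1.09 ± 0.180 (edgeR adjusted p = 0.00274, range over alternatives 0.000597 to 0.315), a call that held when any 1 library was left out. In CEAR against MKN45 it was -0.82 ± 0.325 (edgeR adjusted p = 0.197). The blocked value there was -0.85 ± 0.176 (edgeR adjusted p = 0.00956, range 0.00636 to 0.525), and the call was lost without MKN45 library 1 (edgeR adjusted p = 0.0547) or CEAR library 1 (0.124). HER2R and CEAR differed in PSMB10 by -0.28 (edgeR adjusted p = 0.602).

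PSMB8, the inducible beta 5 subunit, did not follow PSMB9 in HER2R. Its level was 30.8 and 43.2 CPM in MKN45, 29.98 and 50.1 CPM in HER2R, and 13.2 and 33.97 CPM in CEAR. The lines overlapped, and the lowest value was CEAR library 1. Against MKN45, PSMB8 had a log2 fold change of 0.11 ± 0.457 in HER2R (edgeR adjusted p = 0.895) and -0.65 ± 0.461 in CEAR (edgeR adjusted p = 0.463). With the replicate block PSMB8 was lower in CEAR than in MKN45 by -0.76 ± 0.192 (edgeR adjusted p = 0.0214, range over alternatives 0.00125 to 0.908). That call was lost without MKN45 library 1 (edgeR adjusted p = 0.136) or CEAR library 1 (0.199), and without the latter the difference was -0.40. The within-number differences in CEAR were -1.23 for number 1 and -0.35 for number 2. HER2R exceeded CEAR in PSMB8 by 0.84 ± 0.192 with the block (edgeR adjusted p = 0.0102, range 0.000638 to 0.755), a call lost without CEAR library 1 (edgeR adjusted p = 0.0874), and by 0.76 ± 0.463 without the block (edgeR adjusted p = 0.308).

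Most of the 10 genes overlap other genes in GENCODE 29, whose positions are on GRCh38. PSMB8 (chromosome 6, 32840717 to 32844703, minus strand) overlaps PSMB8-AS1 and the longest extent of PSMB9 (32844136 to 32859585, plus strand), which in turn covers TAP1. The library kit keeps the strand, but how the counting used it is not given in the sources used here, so reads in the overlaps may be assigned to either gene. PSMB10 (chromosome 16, 67934502 to 67937087, minus strand) overlaps AC040162.1 on the same strand. PSME1 (chromosome 14, 24136158 to 24138967, plus strand) overlaps EMC9, and its neighbour PSME2 (24143362 to 24147570, minus strand) overlaps RNF31 and MIR7703. PSME3 (chromosome 17, 42824385 to 42843758, plus strand) overlaps BECN1, PSME4 (chromosome 2, 53864067 to 53970840, minus strand) overlaps ACYP2 and PSMB5 (chromosome 14, 23016543 to 23035230, minus strand) overlaps AL132780.4. PSMB6 (chromosome 17, 4796144 to 4798503, plus strand) and PSMB7 (chromosome 9, 124353466 to 124415444, minus strand) overlap no other gene. Pseudogenes carry the names of PSME2 (2 of them) and PSMB7 (1), which could share reads with them.

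Each inducible subunit was next set against the constitutive subunit it replaces, a ratio that does not depend on library scaling. For every 100 counts of PSMB6 MKN45 had 5.51 and 12.4 counts of PSMB9, HER2R had 1.55 and 3.77, and CEAR had 0.317 and 1.80. As a share of both genes' counts, PSMB9 made up 5.22% (95% Wilson interval 4.70 to 5.79) in MKN45 library 1 and 0.316% (0.181 to 0.552) in CEAR library 1, intervals that cover counting error only. For every 100 counts of PSMB7 MKN45 had 22.6 and 38.5 of PSMB10, HER2R had 11.2 and 14.2, and CEAR had 12.1 and 29.2. For every 100 counts of PSMB5 MKN45 had 22.8 and 39.8 of PSMB8, HER2R had 26.6 and 42.5, and CEAR had 12.6 and 34.0.

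In the mean log2 ratio, PSMB9 to PSMB6 was lower than in MKN45 by 3.42-fold in HER2R and by 10.9-fold in CEAR, and PSMB10 to PSMB7 was lower by 2.34-fold in HER2R. The libraries did not overlap in these 3 of 9 comparisons. For each of the 3 the two-sided exact permutation test gave p = 0.333, the smallest that 2 against 2 libraries allow, and for the other 6 p = 0.667. Where lines do not differ, 2 against 2 libraries fail to overlap at that same rate of 0.333. The count of 3 of 9, from comparisons that share libraries, is therefore no result about the ratios. All 9 had an adjusted p of 0.667. Within library numbers, all 9 differences had the same sign in number 1 and number 2. The 9 share libraries, those between the resistant lines follow from the others, and some were small. The share of all gene pairs with such agreement was not computed, so this count is a description. For PSMB9 to PSMB6 against MKN45 they were -1.83 and -1.72 in HER2R and -4.12 and -2.78 in CEAR. For PSMB10 to PSMB7 they were -1.01 and -1.44 in HER2R and -0.90 and -0.40 in CEAR. PSMB8 to PSMB5 differed by 0.22 and 0.09 in HER2R and by -0.86 and -0.23 in CEAR. The paired exact permutation test over the 2 numbers gave p = 0.5 for each, the smallest it allows, so neither test can reach 0.05. The mean PSMB9 to PSMB6 difference ran from -2.42 (without HER2R library 2) to -1.13 (without HER2R library 1) for HER2R, and from -4.70 (without CEAR library 2) to -2.20 (without CEAR library 1) for CEAR.

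**Figure D3:**
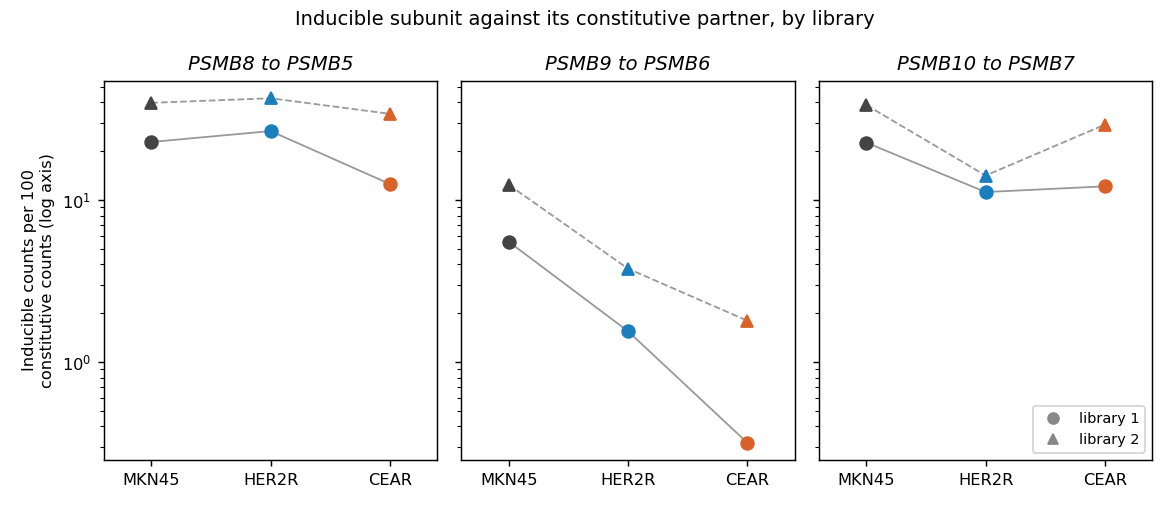
Counts of PSMB8, PSMB9 and PSMB10 per 100 counts of the constitutive subunit each replaces, on a log axis, with 1 point per library and libraries of the same number joined. PSMB9 to PSMB6 lies below both MKN45 points in all 4 resistant libraries, PSMB8 to PSMB5 overlaps between lines, and the ratios are higher in number 2 in every line.

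The constitutive subunits varied much less. PSMB5 measured 134.9 and 108.6 CPM in the MKN45 libraries, 112.6 and 117.9 in those of HER2R and 104.7 and 99.8 in those of CEAR. PSMB6 measured 107.7 and 107.1 CPM in the MKN45 libraries, 98.9 and 113.8 in those of HER2R and 91.1 and 81.2 in those of CEAR. PSMB7 measured 68.8 and 55.5 CPM in the MKN45 libraries, 68.5 and 67.2 in those of HER2R and 60.9 and 46.2 in those of CEAR. The CEAR libraries of PSMB5 and PSMB6 lay below those of both other lines, while HER2R and MKN45 overlapped for all 3 genes. Against MKN45 the log2 fold changes were -0.08, -0.01 and 0.13 in HER2R (edgeR adjusted p = 0.756, 0.955 and 0.689, in the order PSMB5, PSMB6, PSMB7). In CEAR they were -0.25, -0.32 and -0.21 (edgeR adjusted p = 0.354, 0.217 and 0.545). PSMB7 was higher in HER2R than in CEAR with the replicate block, by 0.36 ± 0.119 (edgeR adjusted p = 0.0445, range over alternatives 0.0186 to 0.698; 0.249 without the block). That call was lost without MKN45 library 1 (edgeR adjusted p = 0.0503), HER2R library 2 (0.294), CEAR library 1 (0.0897) or CEAR library 2 (0.378). PSMB6, not called with the block in all 6 libraries, was called in CEAR against MKN45 without either HER2R library, and in HER2R against CEAR without HER2R library 1.

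PSME1 and PSME2, the interferon-inducible cap subunits, passed no test in the unblocked fit. PSME1 measured 64.2 and 63.8 CPM in the MKN45 libraries, 52.7 and 55.1 in those of HER2R and 45.9 and 54.8 in those of CEAR. PSME2 measured 96.1 and 96.3 CPM in the MKN45 libraries, 70.1 and 79.8 in those of HER2R and 68.8 and 88.7 in those of CEAR. The MKN45 libraries of each gene lay close together and above all 4 others. The log2 fold changes against MKN45 were -0.25 (HER2R) and -0.35 (CEAR) for PSME1 and -0.36 and -0.29 for PSME2, with edgeR adjusted p = 0.291, 0.197, 0.196 and 0.339. With the replicate block PSME2 was lower in HER2R by -0.37 ± 0.114 (edgeR adjusted p = 0.0380, range over alternatives 0.030 to 0.530), a call lost without MKN45 library 1 (edgeR adjusted p = 0.307), HER2R library 1 (0.114) or HER2R library 2 (0.107). PSME1 was lower in CEAR by -0.35 ± 0.110 in that fit (edgeR adjusted p = 0.0473, range 0.0407 to 0.600), a call lost without MKN45 library 1 (edgeR adjusted p = 0.290) or 2 (0.0794) or CEAR library 1 (0.437) or 2 (0.0980).

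The nuclear activators showed no difference between lines that passed a test. PSME3 measured 277.5 and 244.8 CPM in the MKN45 libraries, 271.8 and 255.5 in those of HER2R and 245.3 and 224.1 in those of CEAR. PSME4 measured 191.8 and 116.4 CPM in the MKN45 libraries, 199.6 and 131.6 in those of HER2R and 184.0 and 120.2 in those of CEAR. The PSME4 levels thus split by library number rather than by line. Against MKN45 the log2 fold changes were 0.01 and -0.15 for PSME3 and 0.10 and -0.02 for PSME4 in HER2R and CEAR, with edgeR adjusted p of 0.959, 0.561, 0.866 and 0.984.

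Counted over the 10 genes, none passed the edgeR test in HER2R against MKN45, where 9.74% of all tested genes did. At an unadjusted edgeR p under 0.05, 2 were lower (14.8% of all genes), DESeq2 called 1 lower, PSMB10 (9.95%, adjusted p = 0.0182), and limma-voom called 0 (9.06%). The replicate block gave 3 lower genes, PSMB9, PSMB10 and PSME2, against a background of 17.5%. The libraries of 4 genes lay wholly below MKN45, PSMB9, PSMB10, PSME1 and PSME2, against 29.3% of all genes. The median log2 fold change was -0.05 over the 10 genes and -0.02 over all tested genes. Counts of 3 or 4 in 10 genes lie near these backgrounds and are no result about the set.

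In CEAR relative to MKN45 the edgeR test called none of the 10 genes, against 6.19% of all genes. At an unadjusted edgeR p under 0.05, 3 were lower (12.5% of all genes), DESeq2 called 1 lower, PSMB9 (7.75%, adjusted p = 0.000274), and limma-voom called 0 (5.75%). Fitted with the replicate block, 4 were lower, PSMB8, PSMB9, PSMB10 and PSME1, against a background of 13.8%. The libraries of 6 genes lay wholly below MKN45 (25.6% of all genes). All 10 fitted values were below 0, with a median of -0.30 against -0.00 over all tested genes, of which 50.1% were below 0. Of the other barrel subunits 9 of 11 were also below 0 in this comparison, and of the 19S subunits 14 of 18. With scaling by library size alone, 9 were below 0, since PSME4 turned to 0.06. That scaling moved the median of all genes to 0.07 and the calls over all genes from 541 lower and 385 higher to 459 lower and 495 higher.

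In HER2R against CEAR the edgeR test also called none, against 14.1% of all genes, and none had an unadjusted edgeR p under 0.05 (16.3% of all genes were higher at that level). DESeq2 called 0 (11.9% higher) and limma-voom 0 (12.9%). In the blocked fit 3 were higher in HER2R, PSMB7, PSMB8 and PSMB9, against a background of 19.7%, so the count lies near the background. The libraries of 5 genes, PSMB5, PSMB6, PSMB7, PSMB9 and PSME3, lay wholly above CEAR, against 31% of all genes. The median was 0.17, beside 0 over all tested genes. Library size alone as scaling changed the calls over all genes from 1010 lower and 1095 higher to 1296 lower and 931 higher.

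**Figure D4:**
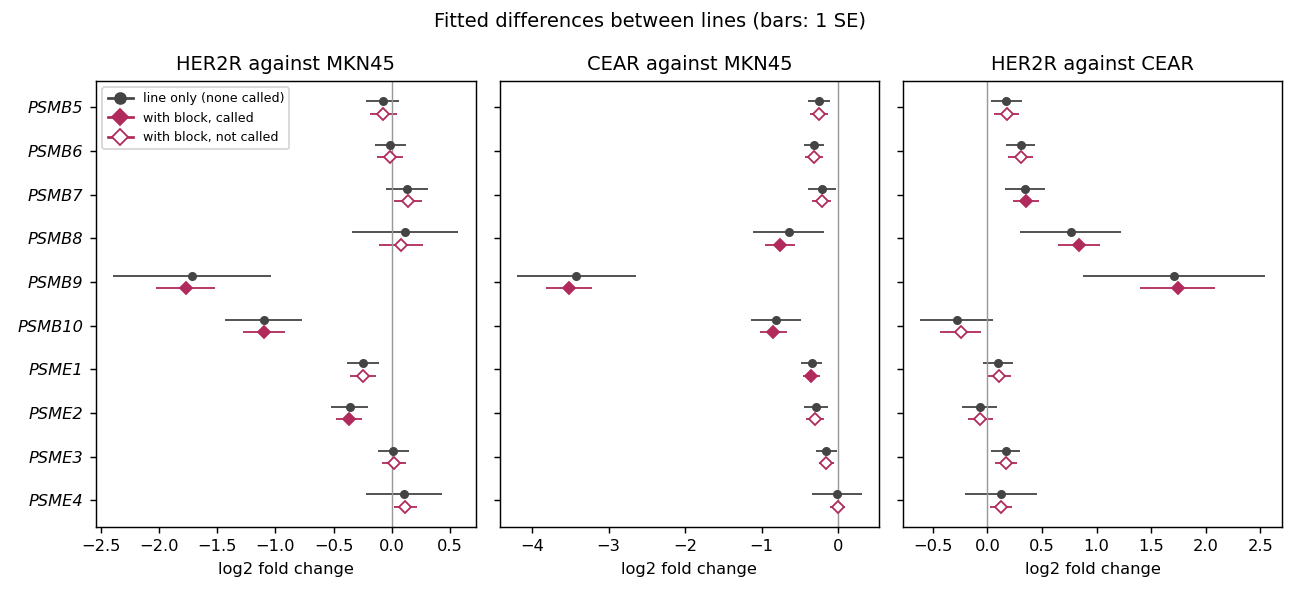
Fitted log2 fold changes of the 10 genes in the 3 comparisons, without (circles) and with (diamonds, filled where called) the replicate block, with bars of 1 SE. PSMB9 lies farthest from 0 in each comparison, and its bars are shorter with the replicate block (0.252 against 0.678 in HER2R against MKN45).

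Library number was a difference of its own for 4 of the 10 genes, as seen after the data were examined. In the blocked fit, number 2 was higher than number 1 for PSMB9 by 1.39 ± 0.230 on the log2 scale (edgeR adjusted p = 0.00774), PSMB8 by 0.85 (0.0107) and PSMB10 by 0.54 (0.0391), each higher in 3 of 3 lines. Over all tested genes 9.33% were higher. PSME4 was lower in number 2 by -0.65 (edgeR adjusted p = 0.00284), also in 3 of 3 lines, where 7.34% of all genes were lower. The other 6 genes were not called, yet PSME2 was also higher in number 2 in 3 of 3 lines, and PSMB7 and PSME3 in 0 of 3. The share of all tested genes with the same direction in all 3 lines was not computed, so this agreement is a description.

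The rest of the pathway was described from 4 lists. Over all tested genes, edgeR called 4.85% lower and 4.89% higher in HER2R against MKN45, 3.62% and 2.57% in CEAR against MKN45, and 6.75% and 7.32% in HER2R relative to CEAR. The block raised these to 17.5% and 16.2%, 13.8% and 12%, and 18.6% and 19.7%. Of 11 tested other subunits of the 20S barrel, none rose or fell in HER2R or CEAR against MKN45 by edgeR. In the blocked fit 0 rose and 1 fell in HER2R, and 1 rose and 2 fell in CEAR. Their medians were -0.02 and -0.13. In HER2R against CEAR the barrel subunits PSMB2 and PSMB3 were higher, by 0.68 and 0.55 (edgeR adjusted p = 0.0386 and 0.0437), with a median of 0.11 for the list. The block gave 3 higher and 2 lower there. Of 18 tested subunits of the 19S particle, which recognises and unfolds ubiquitin-tagged proteins, none was called against MKN45 in either line. The replicate block gave 4 higher and 3 lower in HER2R, and 2 and 2 in CEAR. In HER2R against CEAR PSMC5 (0.64) and PSMD4 (0.54) were higher and PSMD13 (-0.51) lower, with edgeR adjusted p = 0.0292, 0.0350 and 0.0369. With the block 7 were higher and 2 lower.

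Of 14 genes for proteasome assembly, inhibition and transcription, 1 rose in HER2R against MKN45. This was NFE2L1, a transcription factor that raises proteasome subunit genes when proteasome activity falls, at 260 ± 3.80 CPM (SD, n = 2) against 171 ± 0.229, a log2 fold change of 0.60 (edgeR adjusted p = 0.0282). In CEAR 3 fell, the assembly chaperones POMP (-0.77), PSMG3 (-0.74) and PSMD10 (-0.87), with edgeR adjusted p = 0.0377, 0.0419 and 0.0287. POMP is the maturation factor of the barrel. PSMD10 was higher in HER2R than in CEAR by 0.70 (edgeR adjusted p = 0.0347). In the blocked fit 3 rose and 3 fell in HER2R and 1 rose and 4 fell in CEAR against MKN45, and 4 were higher and 2 lower in HER2R relative to CEAR. The list medians were 0.04, -0.03 and 0.21 for HER2R and for CEAR relative to MKN45, and for HER2R relative to CEAR.

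The list of interferon signalling and class I genes held 17 tested genes. Like the other lists it was chosen with earlier results of these data known, so its counts beside all genes are a description. Of these 5 fell and 1 rose in HER2R against MKN45, with a median of -0.33 (beside 4.85% lower and 4.89% higher of all genes), and 5 fell and 1 rose in CEAR against MKN45, with a median of -0.59 (beside 3.62% and 2.57%). In HER2R those with the smallest adjusted p were TAPBP (-1.14), which bridges the peptide transporter and MHC class I, NLRC5 (-1.79), the transactivator of class I genes, and IRF8 (-0.98), an interferon regulatory factor (edgeR adjusted p = 0.00605, 0.00922 and 0.0222). In CEAR they were IFNGR2 (-1.22), a chain of the interferon-gamma receptor, TAPBP (-0.81) and NLRC5 (-1.28), with edgeR adjusted p = 0.0190, 0.0193 and 0.0264. TAP1, the neighbour of PSMB9, fell by 0.83 in HER2R and by 0.95 in CEAR on the log2 scale (edgeR adjusted p = 0.0323 and 0.0274). The gene that rose was the peptide-trimming ERAP2 in HER2R (0.81, edgeR adjusted p = 0.0255) and IRF8 in CEAR (2.25, edgeR adjusted p = 0.00289). In HER2R against CEAR, ERAP2 and ERAP1 were higher (1.17 and 0.98) and IRF8 and IFNGR1 lower (-3.23 and -0.70), with edgeR adjusted p = 0.00942, 0.0298, 0.000961 and 0.0449. With the replicate block the list had 2 higher and 7 lower in HER2R against MKN45 (16.2% and 17.5% of all genes), 1 higher and 12 lower in CEAR against MKN45 (12% and 13.8%), and 6 higher and 3 lower in HER2R relative to CEAR (19.7% and 18.6%).

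**Figure D5:**
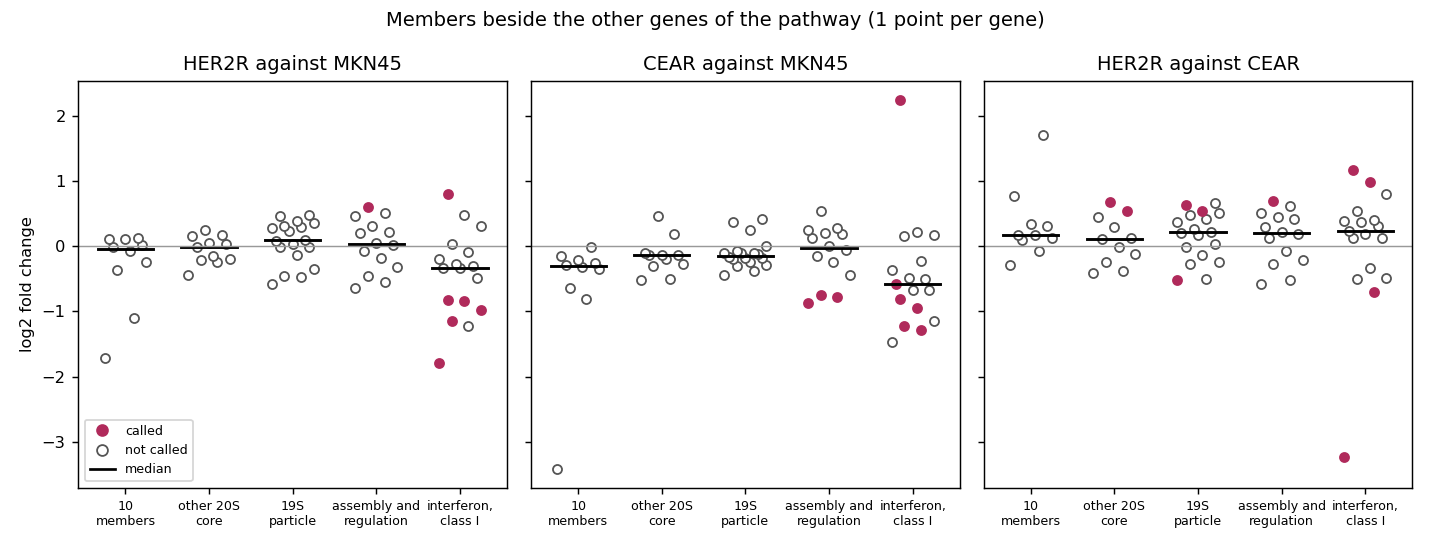
Fitted log2 fold changes of the 10 genes beside the other genes of the pathway, 1 point per gene, filled where edgeR called it, with list medians as bars. The barrel and 19S lists have medians of -0.02 and 0.09 in HER2R against MKN45 and -0.13 and -0.14 in CEAR against MKN45. In HER2R against CEAR their medians are 0.11 and 0.22. The interferon and class I list has medians of -0.33 and -0.59 against MKN45.

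For each inducible subunit, the 3 genes outside the set with the most similar levels over the 6 libraries were found by the root mean square difference in log2 CPM after each gene was centred on its mean, among 10858 genes of 5 CPM or more. PSMB8 was closest to C10orf54 (0.143), GBP3 (0.166) and SDR16C5 (0.179). PSMB9 was closest to C1QTNF1 (0.404), HEPH (0.621) and GAS6 (0.622). PSMB9 itself averaged 2.91 CPM in HER2R and 0.875 CPM in CEAR, and no gene with a mean under 5 CPM was searched. The distance is also not scaled to how widely a gene varies, so it cannot be compared between the 3 subunits. PSMB10 was closest to SCARNA12 (0.0384), CACNB3 (0.123) and MBOAT1 (0.139). With 6 libraries of 3 lines these distances describe the libraries and carry no test.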

How the data were processed

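Total RNA from 3 cultured lines was sequenced in 6 libraries. The kit was a stranded one with ribosomal RNA depletion, per the labels' protocols. The submitters' processing notes name GRCh38 and limma without saying what either was used for. For the aligner, the counting program and its strand setting, nothing is given in the sources used here. The deposited table holds raw counts, whole numbers for each gene symbol, and 0 of its columns lacked a matching sample. Same-line libraries were distinct: the chi-square of their counts, divided by its degrees of freedom, was 131 (MKN45), 62.1 (HER2R) and 91.5 (CEAR). RNA45S5 took 8.88% to 10.7% of all counts.

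The members and gene lists were chosen with earlier results of these data known. Testing used edgeR 4.0.16 (R 4.3.3). After filterByExpr by line, which left 14958 symbols, and TMM scaling, a quasi-likelihood model with line as its term was fitted to the 6 libraries together, leaving 3 residual degrees of freedom. Benjamini-Hochberg adjustment ran over every tested gene with a threshold of 0.05. SE is the absolute log2 fold change divided by the square root of F. All 10 members were named whatever their values. From each list and comparison up to 3 called genes per direction were named, by smallest adjusted p, and TAP1 was added as a neighbour of PSMB9. Of 102 symbols in the gene and marker lists, 101 were in the table. Partner ratios were log2 ratios of counts with no pseudocount (0.5 counts as an alternative), compared by the exact permutation test over libraries.

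The labels number the libraries of a line 1 and 2. Across 14958 genes, the change from number 1 to number 2 correlated at 0.378 between MKN45 and HER2R, 0.545 between MKN45 and CEAR, and 0.355 between HER2R and CEAR. The numbers were therefore taken as pairing the libraries, and a fit with the number as a replicate block is given beside each result it changes. Other alternatives were library size alone, RLE size factors, no filter on low counts, DESeq2 1.42.0, limma-voom (limma 3.58.1), the compared lines alone and omission of each library in turn. The legacy quasi-likelihood method and the blocked fit without each library were added after seeing the data. The blocked fit leaves fewer residual degrees of freedom than the unblocked fit, and fewer still without a library. The fitting functions were run on simulated counts with known changes, as a check of the code. The simulated spread was the same for all genes, so that run does not speak to the spread of the members. Promoter sequences are from RefSeq (GRCh38.p14) and gene positions from GENCODE 29. PSMB6 and PSMB7 had no promoter entry.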

Additional observations from a re-analysis of the deposited data

How the results depend on the processing

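Against 0 of the 10 genes called by edgeR in each comparison, the replicate block, which pairs libraries by number, called 3 in HER2R against MKN45, 4 in CEAR against MKN45 and 3 in HER2R relative to CEAR, and DESeq2 called 1, 1 and 0. No other planned setting called any of the 10. Omitting 1 library left the counts at 0 without the block, and with it they ran from 2 to 3, 1 to 5 and 1 to 4. Omitting libraries turned the sign of several small differences. For HER2R against MKN45 the unblocked log2 fold changes ran from -0.23 to 0.089 for PSMB5, -0.121 to 0.0812 for PSMB6, -0.025 to 0.30 for PSMB7, -0.30 to 0.44 for PSMB8, -0.080 to 0.11 for PSME3 and -0.23 to 0.51 for PSME4. For CEAR against MKN45 PSME4 ran from -0.36 to 0.40. For HER2R relative to CEAR they ran from -0.66 to 0.21 for PSMB10, -0.029 to 0.23 for PSME1, -0.25 to 0.12 for PSME2 and -0.21 to 0.46 for PSME4. The log2 ratio of PSMB8 to PSMB5 ran from -0.24 to 0.56 (HER2R) and -1.26 to 0.18 (CEAR) against MKN45 and from -0.017 to 1.42 between the resistant lines, where that of PSMB10 to PSMB7 ran from -1.21 to 0.052. Blocked fits that turned a sign against MKN45 gave, without MKN45 library 1, PSMB5 0.086 (HER2R) and PSME4 0.055 (CEAR), without MKN45 library 2 PSMB8 -0.19 and PSME3 -0.025 (HER2R), without HER2R library 1 PSMB5 0.058, PSMB6 0.13 and PSMB8 -0.0096, without HER2R library 2 PSMB7 -0.031 and PSME3 -0.021, and without CEAR library 1 PSME4 0.027 (CEAR). Between the resistant lines they gave PSME1 -0.024 without CEAR library 1, and PSMB10 0.0088 and PSME2 0.069 without CEAR library 2. PSME3 in HER2R against MKN45 was -0.0022 with no filter on low counts, and PSME4 in CEAR against MKN45 was 0.060 with library size alone. The cause of these changes was not tested. PSMB9 had 12 counts in its lowest library, so its level there is the least precise.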
